A study of Mus musculus with 12 samples.

Results

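The genes described here are 10 mouse genes of the gasdermin and inflammasome pathway, namely Gsdmc, Gsdmc2, Gsdmc3, Gsdmc4, Gsdmd, Casp1, Casp4, Nlrp3, Aim2 and Pycard. They were taken by symbol from the 54532 genes of the count tables, all 10 were found, and 9 passed the filter on low counts. The members were chosen by symbol with results of these data already known, among them the fold change of Gsdmc4, which was known to stand among the most raised genes of the DSS+UA group against the DSS group. For that reason, values of the members in DSS+UA against DSS, and of Gsdmc4 in each comparison of the DSS+UA group, are given as a description without a p-value. The same choice drew on the DSS libraries, so p-values of the Gsdmc genes in the other comparisons with DSS are not independent of it.

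RNA of colon tissue from 6-week-old male C57BL/6 mice was sequenced in 12 libraries, 3 mice in each of 4 groups. The Con group received neither agent. The DSS group drank 3% (w/v) dextran sulfate sodium, a polymer that injures the colonic epithelium and is used to model ulcerative colitis, for 5 days. Per the methods, the Con and DSS groups received the vehicle by gavage, whereas the labels call Con untreated. The UA+DSS group received the same DSS and ursolic acid (UA), a plant triterpenoid, by gavage at 200 mg/kg from 1 day before DSS, whereas the DSS+UA group started the same dose of UA 3 days after DSS. DSS injury is chemical and acute, no group received UA alone, and the labels do not say from which stretch of the colon each piece was cut.

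Gasdermins are proteins that, once cleaved, make pores in the plasma membrane and can kill the cell by pyroptosis. GSDMD is cleaved by the inflammatory caspases: caspase-1, which also matures IL-1β and IL-18, and caspase-4 (caspase-11 in the older mouse literature), which senses bacterial lipopolysaccharide in the cytosol. Caspase-1 is switched on in inflammasomes, in which a sensor such as NLRP3 or the DNA sensor AIM2 recruits the adaptor ASC, encoded by Pycard. The Gsdmc genes are known from the intestinal epithelium, where they respond to type 2 cytokines. Transcript levels do not show whether any of these proteins was cleaved or active.

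The Gsdmc genes are shown first as sequence, because their near identity limits what a count of each can mean. All lie on the minus strand of chromosome 15 (GRCm38): Gsdmc (ENSMUSG00000079025) at chr15:63775968-63808759, Gsdmc2 (ENSMUSG00000056293) at chr15:63824346-63845177, Gsdmc3 (ENSMUSG00000055827) at chr15:63857724-63878558 and Gsdmc4 (ENSMUSG00000055748) at chr15:63891264-63912297. The first 60 coding bases, read from the GENCODE transcripts of this build, were identical in Gsdmc4, Gsdmc2 and Gsdmc3, and capitals mark the 7 bases at which Gsdmc differs from them.
Gsdmc4: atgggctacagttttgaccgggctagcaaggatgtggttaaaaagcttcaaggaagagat
Gsdmc2: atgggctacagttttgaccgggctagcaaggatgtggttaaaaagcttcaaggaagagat
Gsdmc3: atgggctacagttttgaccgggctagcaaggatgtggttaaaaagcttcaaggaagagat
Gsdmc: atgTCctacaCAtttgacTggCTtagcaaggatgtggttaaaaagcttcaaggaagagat

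These bases lie in exon 1 of the first 3 genes (chr15:63902871-63902930, chr15:63835884-63835943 and chr15:63869238-63869297) and in exon 2 of Gsdmc (chr15:63804533-63804592). Reads can be told apart where the genes diverge. The most divergent coding window of 60 bases among Gsdmc4, Gsdmc2 and Gsdmc3 lies in exon 8, with 15 positions, in capitals, that are not shared by all 3 genes.
Gsdmc4: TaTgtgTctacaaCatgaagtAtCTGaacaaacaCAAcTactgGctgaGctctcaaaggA
Gsdmc2: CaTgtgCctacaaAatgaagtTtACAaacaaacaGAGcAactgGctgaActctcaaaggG
Gsdmc3: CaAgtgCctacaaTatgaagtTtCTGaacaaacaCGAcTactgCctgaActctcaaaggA

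The windows are at chr15:63893815-63893874, chr15:63826868-63826927 and chr15:63860298-63860357, in that order. Over the aligned coding sequence, Gsdmc2 and Gsdmc3 were 97.1% identical, and each was 93.8% identical to Gsdmc4. Of all stretches of 50 bases in the transcripts, 51.3% in Gsdmc2, 46.0% in Gsdmc3 and 39.0% in Gsdmc4 also occur in another gene of the family. How the authors' counting treated reads that match several genes is not given in the sources used here, so single Gsdmc values are uncertain and their sum is given beside them. For Gsdmd, Casp1, Casp4, Nlrp3 and Aim2 under 1% of such stretches are shared. Pycard shares 11.5% with Gm45205, an annotated transcript on the opposite strand with 0 to 35 counts per library, which touches 12.8% of the exon length of Pycard.

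Libraries held 15566216 to 19498383 counts, and values are given as CPM, the count of a gene for each 1000000 counts of its library, after TMM scaling. Summed CPM of 8 epithelial markers was 9763 to 13607 in Con and 5808 to 8724 in DSS, so the tissue label was borne out and the share of epithelial RNA was lower in DSS. Macrophage and monocyte markers (9 genes) summed to 192 to 496 CPM in Con and to 1284 to 2265 in DSS, and fibroblast markers (4 genes) to 491 to 786 and 1634 to 3187. Neutrophil markers (6 genes) summed to 837, 16388 and 918 CPM in DSS 1, 2 and 3, and DSS 3 alone held 6962 CPM of pancreatic enzyme transcripts (4 genes). A Hox position score, the mean log2 CPM of 5 Hox genes of distal gut minus that of 6 of proximal gut, was 5.53, -3.03 and -1.83 in Con, 0.37 to 3.10 in DSS, -5.70 to -4.16 in UA+DSS and 4.11 to 5.06 in DSS+UA. The treatment groups therefore did not overlap in this score, and Con 1 stood apart from Con 2 and Con 3. Within groups the SD of the score was 4.63 in Con, 1.38 in DSS, 0.77 in UA+DSS and 0.48 in DSS+UA. Fits below with the score as covariate therefore take its slope mainly from Con, where Con 1 stands apart. Such fits do not separate position from group where the groups do not overlap. In such bulk tissue fewer cells of a type and less RNA per cell cannot be told apart.

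**Figure D1:**
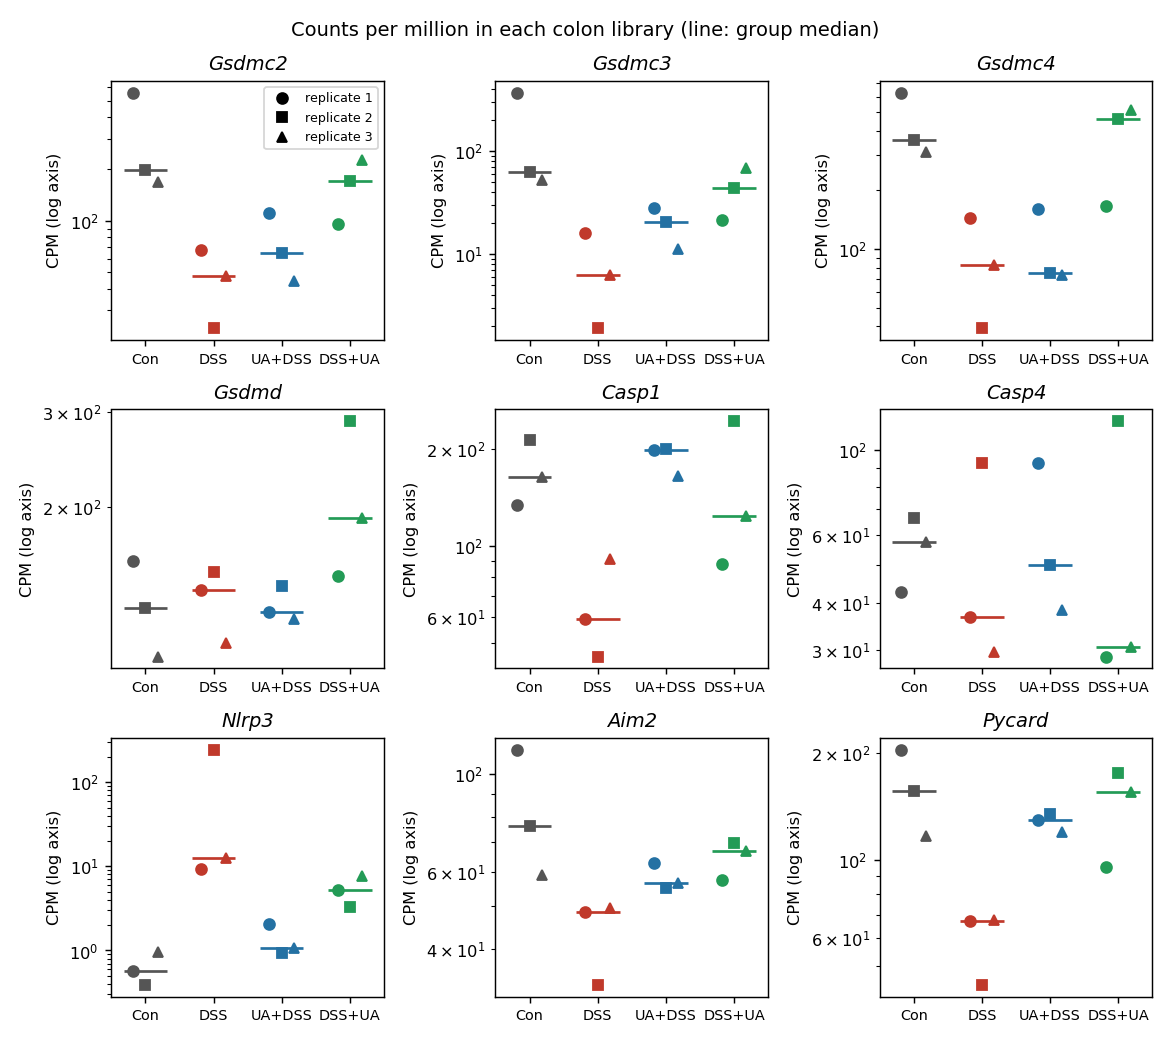
CPM of the 9 tested genes on log axes, with 1 point per library, the marker shape giving the replicate and the line the group median. Nlrp3 in DSS 2 stands at 243 CPM against 9.28 and 12.7 in the other DSS libraries, and Casp4 is high in 1 library of each of the 3 treated groups.

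Gsdmc4 was the most abundant of the 10 genes in Con per kilobase of exon, and Gsdmc was close to absent. In Con the mean levels per kilobase ran from Gsdmc4 with 208 ± 81.0 CPM per kb (SD, n = 3 here and below) through Gsdmc2 with 133 ± 93.5, Casp1 with 114 ± 26.7, Gsdmc3 with 69.3 ± 77.2, Gsdmd with 55.2 ± 11.2 and Pycard with 41.8 ± 11.6 to Aim2 with 23.7 ± 7.99 and Casp4 with 15.0 ± 3.25. Nlrp3 came to 0.158 ± 0.0724 CPM per kb. Most neighbours in this order overlapped in their range, and Nlrp3 lay below all 8 genes in every Con library. In DSS the order was led by Gsdmd with 56.5 ± 8.50 CPM per kb, followed by Casp1 with 43.5 ± 15.6 and Gsdmc4 with 42.4 ± 25.0, and these 3 ranges overlapped.

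Gsdmc had 0 to 3 counts in each library, at or below the floor of 3 counts, and was not tested. The other genes of its family were high in Con and low in DSS. Gsdmc4 measured 627, 361 and 313 CPM in Con 1, 2 and 3 and 143, 39.2 and 82.8 CPM in DSS 1, 2 and 3. Gsdmc2 measured 557, 198 and 167 CPM in Con and 67.6, 23.6 and 47.5 CPM in DSS. Gsdmc3 measured 369, 62.8 and 52.2 CPM in Con and 16.2, 1.90 and 6.18 CPM in DSS. No DSS library reached the lowest Con library for any of the 3 genes, and Con 1 was the highest library for each.

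The question of the first comparison is what DSS changed. In DSS against Con, 7 of the 9 tested members passed an adjusted p of 0.05 in the quasi-likelihood test of edgeR (Benjamini-Hochberg adjustment, 17658 genes tested), against 26.5% of all genes tested. Nlrp3 was the only one raised (background of raised genes 13.9%), and Gsdmc2, Gsdmc3, Gsdmc4, Casp1, Aim2 and Pycard were lowered (background 12.6%). The median log2 fold change was -1.39 over the 9 members and -0.03 over all genes. The same 7 genes were those whose DSS and Con libraries did not overlap, a pattern seen in 41.3% of all genes. Gsdmc2, Gsdmc3 and Gsdmc4 share sequence and correlated at r of 0.91 to 0.98 over the 12 libraries. They are therefore not 3 independent members in these counts or in the median.

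Gsdmc3 fell by 4.32 on the log2 scale (SE 0.97, edgeR adjusted p = 0.0110), Gsdmc2 fell by 2.73 (SE 0.58, adjusted p = 0.00864) and Gsdmc4 fell by 2.29 (SE 0.56, adjusted p = 0.0149). The choice of Gsdmc4 drew on these DSS libraries, so its p-value is not independent evidence. With the 4 genes counted as 1 feature, the family fell by 2.66 (SE 0.60, adjusted p = 0.0108), from 902 ± 565 CPM in Con to 143 ± 81.2 CPM in DSS. Without Con 1 the log2 fold changes of Gsdmc3 and Gsdmc2 were -2.83 and -1.98, without DSS 1 that of Gsdmc3 was -5.33, and all 3 genes still passed the test in each of these fits. Gsdmc3 made up 23.8%, 10.1% and 9.80% of the family's counts in Con and 7.12%, 2.94% and 4.52% in DSS. Its share was thus lower in each DSS library than in each Con library, within the limit that shared reads set on any split of the family.

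Casp1 (ENSMUSG00000025888, chr9:5298517-5307265, plus strand) measured 134, 213 and 164 CPM in Con and 59.4, 45.3 and 90.9 CPM in DSS. Casp1 fell by 1.39 on the log2 scale (SE 0.36, edgeR adjusted p = 0.0187), and the groups did not overlap. The call was lost without Con 2 (adjusted p = 0.0659), without DSS 1 (0.0612) or without DSS 2 (0.0577).

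Pycard (ENSMUSG00000030793, chr7:127989708-127993867, minus strand) measured 205, 156 and 116 CPM in Con and 67.0, 44.2 and 67.5 CPM in DSS. The highest DSS library stood well under the lowest Con library. Pycard fell by 1.42 on the log2 scale (SE 0.27, edgeR adjusted p = 0.00519) and passed the test under each of 22 alternatives.

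Aim2 (ENSMUSG00000037860, chr1:173350879-173466040, plus strand) measured 114, 76.1 and 59.0 CPM in Con and 48.7, 33.1 and 49.6 CPM in DSS. Aim2 fell by 0.92 on the log2 scale (SE 0.23, edgeR adjusted p = 0.0157), the smallest of the 6 decreases. Its call was lost only in the fit of the DSS and Con libraries alone (adjusted p = 0.0723).

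Nlrp3 (ENSMUSG00000032691, chr11:59541568-59566956, plus strand) moved the other way. It measured 0.569, 0.388 and 0.963 CPM in Con, which is 7 to 18 counts, and 9.28, 243 and 12.7 CPM in DSS. DSS 2 thus held far more Nlrp3 than DSS 1 and DSS 3, which in turn stood above every Con library. The fitted log2 fold change was 7.09 (SE 1.33, edgeR adjusted p = 0.00554). It came to 4.09 without DSS 2, still past the threshold, and the call was lost in limma-voom (adjusted p = 0.0770). DSS 2 also held the highest summed neutrophil markers.

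Gsdmd (ENSMUSG00000022575, chr15:75862327-75867408, plus strand), the executioner of inflammasome pyroptosis, was level across both groups. It measured 158, 130 and 105 CPM in Con and 140, 151 and 112 CPM in DSS, with a log2 fold change of 0.03 (SE 0.24, edgeR adjusted p = 0.930). The sign of this value changed with the scaling of the libraries (-0.01 with upper-quartile factors).

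Casp4 (ENSMUSG00000033538, chr9:5308828-5336783, plus strand) is the neighbour of Casp1 on the same strand. It measured 42.7, 66.6 and 57.6 CPM in Con and 36.8, 92.3 and 29.8 CPM in DSS. DSS 2 stood above and the other 2 DSS libraries below all Con libraries, and the log2 fold change was -0.07 (SE 0.60, edgeR adjusted p = 0.940), with a value of -0.74 without DSS 2 and of 0.01 with scaling by library size alone.

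**Figure D2:**
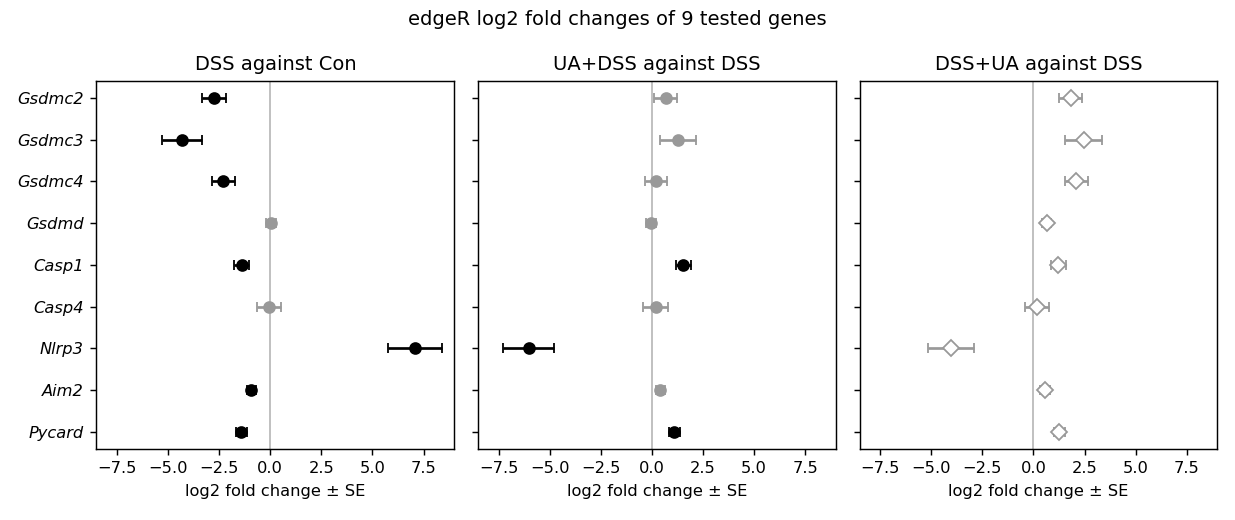
Log2 fold changes (edgeR, bars ± SE) of the 9 tested genes in 3 comparisons, all of which share the same DSS libraries. Black points passed an adjusted p of 0.05 and grey points did not, while open diamonds mark DSS+UA against DSS, shown as a description. In DSS against Con, 6 genes lie at -0.92 or lower and Nlrp3 at 7.09.

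Since epithelial RNA was lower in DSS, each gene was also set against the mean log2 CPM of the 8 epithelial markers, which was 9.75 ± 0.37 in Con and 9.06 ± 0.35 in DSS. On this scale the difference between Aim2 and the markers was -3.42 ± 0.73 in Con and -3.63 ± 0.19 in DSS, and the ranges overlapped. Casp1 stood at -2.36 ± 0.04 in Con and -3.09 ± 0.16 in DSS, and Pycard at -2.47 ± 0.64 and -3.19 ± 0.20. Both remained lower in each DSS library than in each Con library. Gsdmc4 stood at -1.05 ± 0.82 and -2.78 ± 0.81, Gsdmc2 at -1.70 ± 1.22 and -3.65 ± 0.63 and Gsdmc3 at -3.01 ± 1.84 and -6.50 ± 1.37. The Gsdmc genes were therefore lower in DSS also relative to the epithelial markers, again with no overlap, and what the cell composition adds to the calls was not tested.

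**Figure D3:**
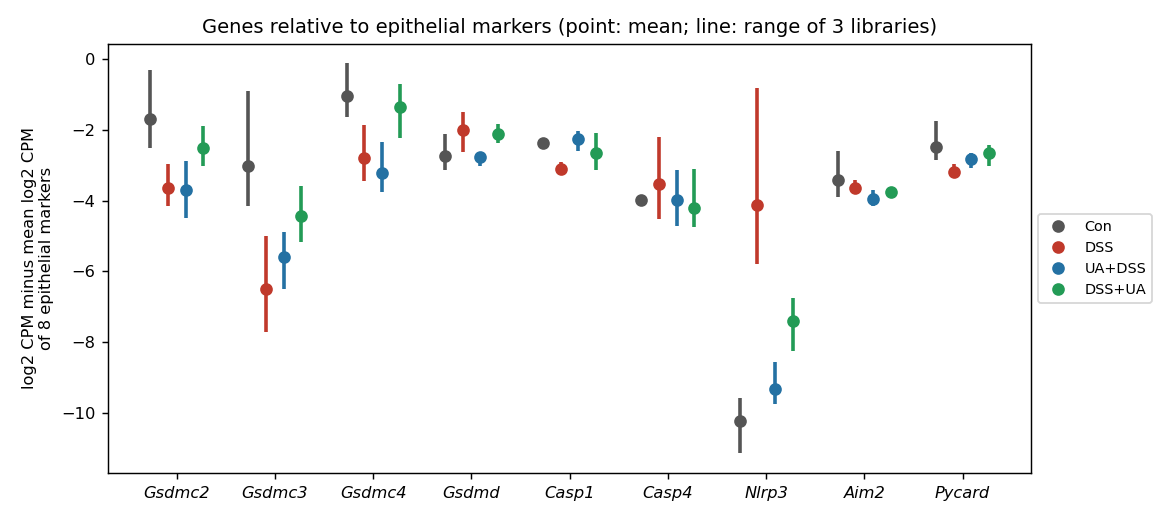
Log2 CPM of each gene minus the mean log2 CPM of 8 epithelial markers, with the group mean as a point and the range of 3 libraries as a line. Aim2 lies between -4.15 and -2.58 in all groups, while Gsdmc3 spans -7.72 to -5.01 in DSS and -4.16 to -0.89 in Con.

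The second comparison asks what differed when UA was started before DSS. In UA+DSS against DSS, 3 of the 9 tested members passed the edgeR test against 18.7% of all genes, Casp1 and Pycard being raised (background 8.21%) and Nlrp3 lowered (background 10.5%). The median log2 fold change of the members was 0.41, and -0.02 over all genes. Casp1, Pycard, Aim2 and Nlrp3 did not overlap between these groups, as was the case for 42.8% of all genes. The DSS libraries are the same as in the first comparison, so the values of these comparisons are not independent.

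Casp1 measured 198, 201 and 165 CPM in UA+DSS, all above the DSS libraries and within or near the range of Con. Its log2 fold change against DSS was 1.53 (SE 0.37, edgeR adjusted p = 0.0194). Pycard measured 130, 134 and 119 CPM in UA+DSS, a narrow range inside that of Con, and its log2 fold change against DSS was 1.10 (SE 0.27, edgeR adjusted p = 0.0199). Nlrp3 measured 2.05, 0.937 and 1.06 CPM in UA+DSS. These levels lay below every DSS library and overlapped Con, and Nlrp3 fell by 6.03 on the log2 scale (SE 1.25, edgeR adjusted p = 0.0145) or by 3.03 without DSS 2.

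These 3 calls were sensitive to single libraries and to the Hox position score, which did not overlap between UA+DSS and DSS. With the score as a covariate the adjusted p was 0.267 for Casp1, 0.159 for Nlrp3 and 0.105 for Pycard, with log2 fold changes of 1.04, -6.29 and 1.52. Casp1 lost the call also without DSS 1 (0.0620), DSS 2 (0.0581) or UA+DSS 2 (0.0779), Pycard without DSS 2 (0.0606) or UA+DSS 2 (0.0798), and Nlrp3 without UA+DSS 2 (0.0755) or UA+DSS 3 (0.0529), in limma-voom (0.107) and in the fit of the 2 groups alone (0.0533).

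The Gsdmc genes did not pass the test in this comparison. Gsdmc4 measured 159, 75.2 and 73.4 CPM in UA+DSS, overlapping DSS, with a log2 fold change of 0.22 (SE 0.54, edgeR adjusted p = 0.815) that was -0.14 without DSS 2 and -0.25 without UA+DSS 1. Gsdmc2 measured 111, 65.0 and 44.7 CPM, with a log2 fold change of 0.67 (SE 0.55, adjusted p = 0.427). Gsdmc3 measured 27.7, 20.6 and 11.1 CPM, with a log2 fold change of 1.29 (SE 0.88, adjusted p = 0.333) that became 2.29 without DSS 1. Summed, the family measured 298, 161 and 129 CPM in UA+DSS and differed from DSS by 0.46 (SE 0.57, adjusted p = 0.615). With the Hox position score as a covariate the log2 fold changes were larger, 1.17 (SE 0.78, adjusted p = 0.401) for Gsdmc4, 2.01 (SE 0.65, 0.144) for Gsdmc2 and 3.74 (SE 0.94, 0.107) for Gsdmc3, and did not pass the test either.

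Aim2 in UA+DSS measured 62.9, 55.2 and 56.4 CPM, above all DSS libraries, with a log2 fold change of 0.41 that did not pass the test (SE 0.23, edgeR adjusted p = 0.235). Gsdmd measured 127, 143 and 123 CPM, with a log2 fold change of -0.03 (SE 0.24, adjusted p = 0.939). Casp4 measured 92.6, 50.2 and 38.2 CPM, with UA+DSS 1 high and the other 2 libraries near Con, and a log2 fold change of 0.19 (SE 0.60, adjusted p = 0.857) that became 0.85 without DSS 2. The signs of the Gsdmd and Casp4 values turned with the Hox position score as a covariate, to 0.29 and -0.30. The mean log2 CPM of the epithelial markers was 9.81 ± 0.15 in UA+DSS and 9.06 ± 0.35 in DSS. Set against it, Casp1 stood at -2.25 ± 0.30 in UA+DSS, still above every DSS library. Nlrp3, at -9.34 ± 0.67, was still below every DSS library. Pycard, at -2.81 ± 0.23, overlapped DSS. Aim2, at -3.94 ± 0.23, also overlapped DSS, with a mean below that of DSS (-3.63 ± 0.19).

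Against Con, none of the 9 tested members passed the edgeR test in UA+DSS, where 0.00566% of all genes did. Of the members, 4 had an unadjusted p under 0.05 in edgeR, namely Gsdmc2, Gsdmc3, Gsdmc4 and Aim2. DESeq2 called 3 of them, Gsdmc2 (adjusted p = 0.0122), Gsdmc3 (0.0111) and Gsdmc4 (0.00978), and limma-voom called 0. Here and below, counts at an unadjusted p or from DESeq2 or limma-voom lack the share of all genes. Nothing is read from these counts. The edgeR log2 fold changes were -2.06 (SE 0.57, adjusted p = 0.261), -3.03 (SE 0.92, 0.282) and -2.08 (SE 0.56, 0.245), and -1.31 for Gsdmc2 and -1.54 for Gsdmc3 without Con 1. Every UA+DSS library lay below every Con library for these 3 genes and for no other member, as 20.6% of all genes did in one direction or the other. With the Hox position score as a covariate the 3 values were -0.82, -0.63 and -1.30.

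The third comparison asks what differed when UA was started after DSS. In DSS+UA 8 of the 9 tested members had a positive log2 fold change against DSS, the exception being Nlrp3, and that of Casp4 turned to -0.04 with scaling by library size alone. These values are given as a description. Gsdmc4 measured 165, 461 and 512 CPM in DSS+UA, Gsdmc2 95.3, 171 and 225 CPM, and Gsdmc3 21.4, 43.4 and 68.7 CPM. DSS+UA 1 was the lowest library for each, and all 3 libraries lay above the DSS libraries. The log2 fold changes against DSS were 2.10 (SE 0.56) for Gsdmc4, 1.82 (SE 0.56) for Gsdmc2 and 2.46 (SE 0.90) for Gsdmc3, the last 3.48 without DSS 1. With the Hox position score as a covariate they were 1.71 (SE 0.58), 1.25 (SE 0.49) and 1.55 (SE 0.69).

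Pycard measured 95.7, 176 and 156 CPM in DSS+UA, above all DSS libraries (log2 fold change 1.26, SE 0.27). Casp1 measured 87.6, 244 and 124 CPM, and DSS+UA 1 fell inside the DSS range (1.22, SE 0.36). Aim2 measured 57.6, 69.7 and 66.9 CPM, above all DSS libraries (0.56, SE 0.23). The lowest of the DSS+UA libraries was number 1 for all 3 genes.

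Gsdmd measured 149, 288 and 190 CPM in DSS+UA, where library 2 was the highest of all 12 (log2 fold change against DSS 0.64, SE 0.24). Casp4 measured 28.9, 119 and 30.7 CPM, and library 2 again held the highest level of all 12 (0.17, SE 0.60, with -0.87 without that library and 0.85 without DSS 2). Nlrp3 measured 5.21, 3.28 and 7.65 CPM, below every DSS library and above every Con and UA+DSS library, with a log2 fold change against DSS of -4.03 (SE 1.11) that shrank to -1.02 without DSS 2. The DSS+UA and DSS libraries did not overlap for 6 members, beside 34.7% of all genes, from which nothing is read since the choice of members used this comparison. Set against the epithelial markers, every tested member but Nlrp3 overlapped between DSS+UA and DSS. On that scale Gsdmc4 stood at -1.36 ± 0.78 in DSS+UA and -2.78 ± 0.81 in DSS, and Pycard at -2.66 ± 0.31 and -3.19 ± 0.20. Aim2 stood at -3.75 ± 0.13 and -3.63 ± 0.19, and Gsdmd at -2.11 ± 0.27 and -2.00 ± 0.57.

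Set against Con, 0 of the 8 tested members other than Gsdmc4 passed the edgeR test in DSS+UA, while 18.1% of all genes did. Gsdmd and Nlrp3 had an unadjusted p under 0.05, DESeq2 called 1 member, Gsdmd (adjusted p = 0.0481), and limma-voom called 0. The edgeR values were a log2 fold change of 0.67 for Gsdmd (SE 0.24, adjusted p = 0.0729) and of 3.06 for Nlrp3 (SE 1.19, adjusted p = 0.0939). Nlrp3 was the only member without overlap between DSS+UA and Con (38.9% of all genes), and its call was gained without DSS 2, at an adjusted p of 0.00339. Gsdmc4 stood at -0.19 (SE 0.54), Gsdmc2 at -0.91 (SE 0.55, adjusted p = 0.256) and Gsdmc3 at -1.86 (SE 0.87, 0.153), which became -0.16 for Gsdmc2 and -0.37 for Gsdmc3 without Con 1. With the Hox position score as a covariate they moved the other way, to -0.76 for Gsdmc4, -1.58 for Gsdmc2 (adjusted p = 0.0697) and -2.83 for Gsdmc3, which then passed the test (0.0363). The sign of the Gsdmc4 value turned without Con 1 (0.17) and without DSS+UA 1 (0.18).

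Between the UA schedules, edgeR called 0 of the 8 tested members other than Gsdmc4 in DSS+UA against UA+DSS, beside 16.8% of all genes. Of these members 1, Gsdmd, had an unadjusted p under 0.05, DESeq2 called 1, also Gsdmd (adjusted p = 0.0496), and limma-voom called 0. Gsdmc4, known to be high in the DSS+UA libraries, had a log2 fold change of 1.89 (SE 0.56), with 165 CPM in the lowest DSS+UA library and 159 CPM in the highest UA+DSS library. With the Hox position score, which did not overlap between these groups, the value was 0.54 (SE 1.00). Gsdmc4, Gsdmd and Nlrp3 did not overlap between the schedules, as was seen in 45.3% of all genes. Gsdmd differed by 0.67 (SE 0.24, adjusted p = 0.0768) and Nlrp3 by 1.998 (SE 1.11, adjusted p = 0.235), and the latter was called without DSS 2 (0.0143).

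**Figure D4:**
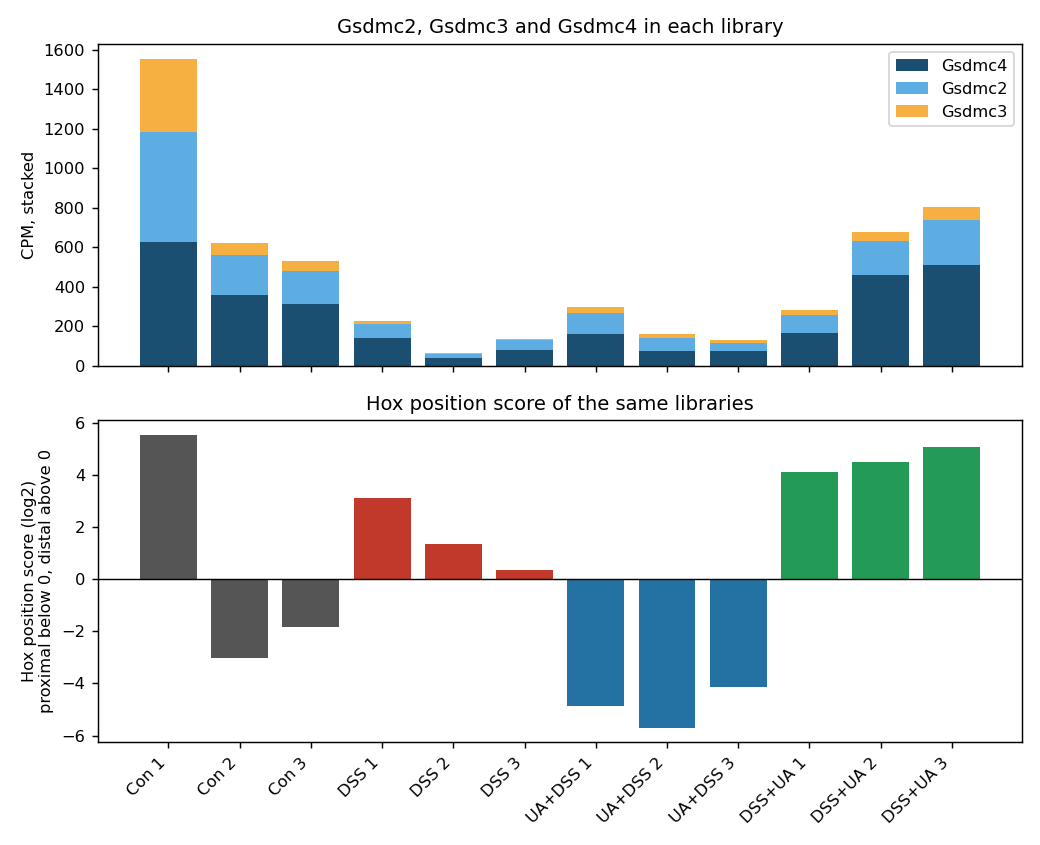
Upper panel, CPM of Gsdmc4, Gsdmc2 and Gsdmc3 stacked for each library, and lower panel, Hox position score (log2) of the same libraries. Con 1 has the highest sum, 1553 CPM, and the highest score, 5.53, and the UA+DSS libraries have sums of 129 to 298 CPM and scores below 0.

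Gsdmcl2 (ENSMUSG00000093867, chr15:63880707-63890512, plus strand), an annotated pseudogene between Gsdmc3 and Gsdmc4 that shares no stretch of 50 bases with the 4 Gsdmc genes, had values resembling theirs. It measured 172, 43.3 and 33.6 CPM in Con and 16.1, 7.71 and 8.45 CPM in DSS. With UA before DSS it measured 11.4, 4.12 and 7.28 CPM, and with UA after DSS 26.9, 51.8 and 68.6 CPM. Con 1 was again the highest library and UA+DSS among the lowest. Gsdmcl2 fell by 2.95 on the log2 scale in DSS against Con (SE 0.67, edgeR adjusted p = 0.0113), or by 1.84 without Con 1. In UA+DSS against DSS its log2 fold change was -0.50 (SE 0.64, edgeR adjusted p = 0.628). This sign was opposite to that of Gsdmc2, Gsdmc3 and Gsdmc4, and the value was 1.38 with the Hox position score as a covariate. Between the UA schedules Gsdmcl2 differed by 2.69 (SE 0.67), and by 0.01 with that covariate.

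Nearest to Gsdmc4 in pattern, by Pearson's r of log2 CPM over the 12 libraries with no test, were Eno3 (0.94), a muscle-type enolase, Adgrv1 (0.93), Gsdmcl2 (0.93), Fut4 (0.92) and Atp6v0e2 (0.92). For Casp1 they were Bsg (0.98), E2f5 (0.98), Dram2 (0.97), Ccdc68 (0.97) and Phgr1 (0.97). For Gsdmd they were Plcl2 (0.95), Brk1 (0.95), S100a10 (0.95), Bad (0.95) and Sem1 (0.94). The 12 points share their groups, so genes that differ between groups are alike for that reason alone.

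The genes nearest to Nlrp3 were Adam8 (r = 0.99), Lilr4b (0.99), Stx11 (0.99), Padi4 (0.99) and Csf3r (0.99), the last being the receptor of granulocyte colony-stimulating factor and one of the 6 neutrophil markers. Summed neutrophil markers were 9.26 to 114 CPM in Con, 837 to 16388 in DSS, 26.2 to 116 in UA+DSS and 394 to 952 in DSS+UA. Nlrp3 and these markers were therefore highest in the same library, DSS 2, and low in all Con and UA+DSS libraries, and the part of neutrophils in the Nlrp3 values was not tested.

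Casp4 varied more within the groups than between them. Its nearest genes were Irf1 (r = 0.93), Arih2 (0.92), Nr1h2 (0.89), Bid (0.89) and Tap1 (0.88), and Irf1 and Tap1 are known as interferon-induced genes. Irf1 measured 140, 194 and 155 CPM in Con, 95.2, 185 and 67.3 CPM in DSS, 225, 148 and 114 CPM with UA before DSS and 88.3, 322 and 119 CPM with UA after DSS. The highest library of each group was the same for both genes, namely Con 2, DSS 2, UA+DSS 1 and DSS+UA 2. Casp1, next to Casp4 on the chromosome, had an r of 0.33 with it over the same libraries.

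**Figure D5:**
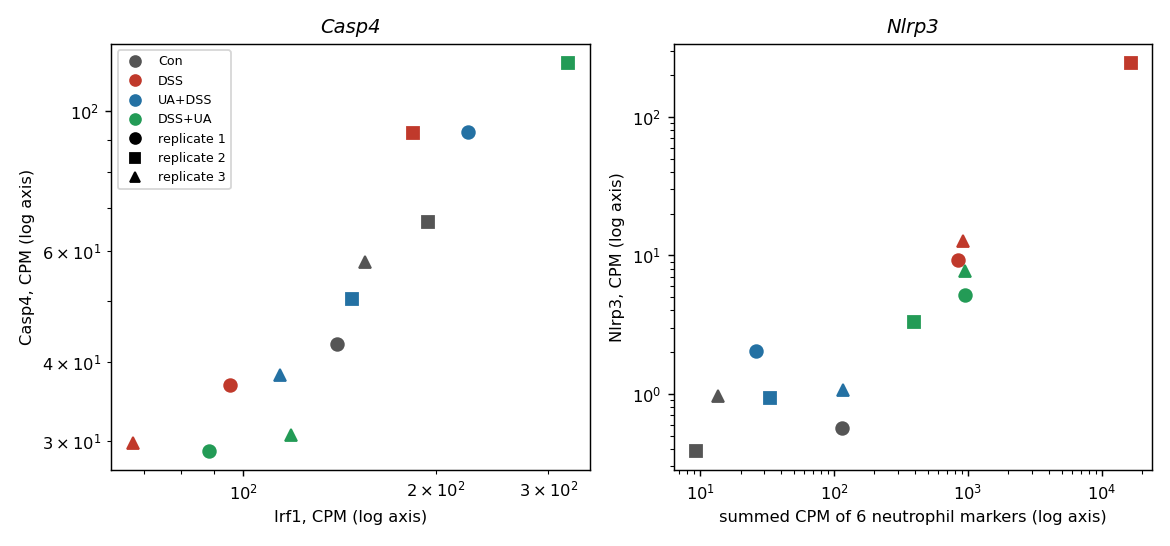
Left, Casp4 against Irf1, and right, Nlrp3 against the summed CPM of 6 neutrophil markers, all on log axes with 1 point per library, colours for the groups and shapes for the replicates. DSS+UA 2 has the highest Casp4 (119 CPM) and Irf1 (322 CPM), and DSS 2 the highest Nlrp3 (243 CPM) and neutrophil sum (16388 CPM).

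The other genes of the pathway were read from a list of 49, of which 47 were tested. In DSS against Con, 13 of the 47 were raised and 6 were lowered, beside 13.9% and 12.6% of all genes, with a median log2 fold change of 0.03. There were 8 raised and 8 lowered in UA+DSS against DSS (median 0.14), beside 8.21% and 10.5% of all genes. Of the list 3 were called in DSS+UA against DSS, all of them raised (median 0.23), beside 7.54% of all genes called in either direction. The role groups named next are parts of this list and are read against the same shares.

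Among 11 other sensors, 3 were raised in DSS against Con (Nlrp1a, Nlrp12 and Mefv; 13.9% of all genes) and 4 lowered (Nlrp1b, Naip5, Naip6 and Nlrp6; 12.6% of all genes). Nlrp6, a sensor of the intestinal epithelium, measured 138, 293 and 222 CPM in Con, 85.9, 52.0 and 106 CPM in DSS, 254, 332 and 284 CPM with UA before DSS and 141, 211 and 189 CPM with UA after DSS. Every DSS library was below the libraries of the other groups. Its log2 fold change was -1.42 in DSS against Con (SE 0.31, edgeR adjusted p = 0.0090), 1.83 in UA+DSS against DSS (SE 0.32, 0.00990) and 1.15 in DSS+UA against DSS (SE 0.31, 0.0478). The second call was lost without UA+DSS 2 (0.0507) and with the Hox position score as covariate (0.156). Naip1, Naip2 and Naip6, sensors of bacterial flagellin or secretion needles, share 31.5%, 19.1% and 21.5% of their stretches of 50 bases with other genes, led by those of the Naip family, so their single values are uncertain. Naip6 fell by 1.58 in DSS against Con (SE 0.27, adjusted p = 0.00368), while Naip1 and Naip2 did not pass the test, with -0.53 (0.231) and -0.36 (0.384), the former called without DSS 3 (-0.99, 0.0252).

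The cytokines released through gasdermin pores split. Il1b measured 0.517, 0.444 and 1.60 CPM in Con, 120, 3011 and 150 CPM in DSS, 13.0, 2.12 and 10.5 CPM with UA before DSS and 68.0, 77.8 and 171 CPM with UA after DSS. Il1b and Il1a were raised in DSS against Con, with log2 fold changes of 10.31 (SE 1.66, edgeR adjusted p = 0.00332) and 8.17 (SE 1.64, 0.00700), and both were highest in DSS 2. With UA before DSS, Il1b fell by 6.998 (SE 1.42, edgeR adjusted p = 0.0137) and Il1a fell by 6.77 (adjusted p = 0.0166) against DSS. Without DSS 2 the values were 7.29 and 5.03 in the first comparison and -3.98 and -3.64 in the second, all past the test, and the second call was lost for both genes without UA+DSS 2 (0.0691 and 0.0823), and for Il1a also without UA+DSS 1 (0.0534) or UA+DSS 3 (0.0559). Counting every alternative with an adjusted p, the second call was lost in 2 of 20 for Il1b and 6 of 20 for Il1a, and the first in 1 of 20 for Il1a (limma-voom, 0.103). Il18, an epithelial cytokine, did not pass the test in either, with -0.98 (SE 0.54, 0.197) and -0.31 (SE 0.54, 0.727), and the first value was -0.14 without Con 1.

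Of the other gasdermins, Gsdme fell by 1.13 on the log2 scale in DSS against Con (SE 0.29, edgeR adjusted p = 0.0174) and was raised in UA+DSS against DSS by 1.95 (SE 0.30, 0.00797). The first call was lost without Con 2 (0.0583) or DSS 1 (0.0651), and the second with the Hox position score as covariate (0.117). Gsdma, at 0.832 to 12.7 CPM, was raised in DSS against Con by 2.03 (SE 0.65, 0.0391) with DSS 1 as its highest library and a value of 0.83 (0.250) without it. The Gsdma call was lost in 10 of 22 alternatives, and Gsdma2 and Gsdma3 did not pass the filter on low counts. Casp6 and Casp8, caspases of apoptosis, did not pass the test in DSS+UA against DSS, with log2 fold changes of 0.13 (edgeR adjusted p = 0.728) and 0.29 (0.263).

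Among 26 regulators, 7 were raised in DSS against Con (Gbp5, Il1rn, Ninj1, Tlr4, Cd14, Ripk3 and Pstpip1), beside 13.9% of all genes, and 1, Txnip, was lowered, beside 12.6%. Txnip, whose protein binds thioredoxin and NLRP3, measured 682 to 743 CPM in Con, 398 to 418 CPM in DSS, 602 to 1166 CPM with UA before DSS and 274 to 380 CPM with UA after DSS. Its log2 fold change was -0.81 in DSS against Con (SE 0.24, edgeR adjusted p = 0.0310) and 1.01 in UA+DSS against DSS (SE 0.24, 0.0200), and the first call was lost without any 1 of the Con or DSS libraries (adjusted p = 0.0596 to 0.0879). The second call was lost in 5 of 22 alternatives, namely without DSS 1, DSS 2 or UA+DSS 2, in the fit of the 2 groups and with the Hox position score (adjusted p = 0.0510 to 0.182). Cd14, the lipopolysaccharide co-receptor, rose by 4.32 in DSS (SE 1.05, 0.0148) with 2519 CPM in DSS 2 against 136 and 148 CPM in the other DSS libraries, and by 1.59 without DSS 2. Its call was lost without Con 2 (0.0604) or Con 3 (0.0514), with the replicate block (0.0520) and in the fit of the 2 groups (0.0724), and DESeq2 gave no adjusted p. Serpinb1a, an inhibitor of inflammatory caspases, was raised in DSS+UA against DSS by 0.92 (SE 0.24, 0.0432), and Chmp4b, of the membrane repair machinery, did not pass in any of the 3 comparisons. The calls of Nlrp6 and Serpinb1a in DSS+UA against DSS were lost in 12 and 11 of 22 alternatives, with adjusted p up to 0.166 and 0.164.

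Since type 2 cytokines are known to induce Gsdmc genes, 11 genes of that response were read, of which 8 were tested. In DSS against Con 1 of the 8, Il4ra, was raised (13.9% of all genes) and 2, the tuft cell genes Pou2f3 and Trpm5, were lowered (12.6%). These 3 genes were called in the opposite direction in UA+DSS against DSS, where 8.21% of all genes were raised and 10.5% lowered. Dclk1, another tuft cell gene, did not pass in either, with log2 fold changes of 0.24 and -0.52 whose signs were opposite to those of Pou2f3 and Trpm5. Il4ra and Dclk1 were lowered in DSS+UA against DSS, beside 7.54% of all genes called. Of 14 mature colonocyte genes, Cdhr5 was lowered in DSS against Con, beside 12.6% of all genes. Car1, Cdhr5, Slc51b and Vil1 were raised in UA+DSS against DSS, beside 8.21% of all genes. In DSS+UA against DSS 0 were called by edgeR, beside 7.54% of all genes. There 4 had an unadjusted p under 0.05 in edgeR, DESeq2 called 3 and limma-voom 0. Summed mature colonocyte genes were 8997 to 23906 CPM in Con, with Con 1 lowest, and 3947 to 11942 CPM in DSS. They were 22361 to 28940 CPM in UA+DSS and 9204 to 20890 CPM in DSS+UA. The Gsdmc family was low both in UA+DSS and in DSS.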

How the data were processed

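Deposited raw counts per Ensembl gene of 12 colon libraries (RNA-seq) were used. Per the labels and methods, the authors checked reads with FastQC, aligned them to GRCm38 and counted with HISAT2. Cuffdiff is also named in the submitters' processing notes. For versions, strand setting and multiply matching reads nothing was found (not given in the sources used here). Shared reads can move counts between Gsdmc genes. Libraries held 15566216 to 19498383 counts; with 3 mice per group, the spread between mice, not depth, limits precision. Shares of counts cover counting error only.

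Counts were fitted for all genes with edgeR 4.0.16 in R 4.3.3 (filterByExpr, 17658 genes; TMM; robust quasi-likelihood test; 1 fit of 12 libraries; Benjamini-Hochberg adjustment; threshold 0.05). Log2 CPM used a prior count of 2. The fit was tested on simulated data. Alternatives were DESeq2 1.42.0, limma-voom 3.58.1, other scaling and filters, 2-group fits, a replicate block, a Hox position covariate, a Gsdmc sum, and leaving out each library. Same-numbered libraries of 2 groups (18 pairs) deviated together with r of -0.22 to 0.19, so no pairing by number was clear. Whether same-numbered libraries share a batch is not settled by this.

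Members, gene lists and the Hox score were chosen with earlier results of these data known, so p-values of members are not independent evidence. A planned count of called members in DSS+UA against DSS was dropped because the choice of members used that comparison. Named genes are all members, up to 4 tested genes of highest mean CPM per role group and the 5 genes most correlated with Gsdmc4, Gsdmd, Casp1, Casp4 and Nlrp3; other names are genes counted as called, Gsdmcl2 for its position, and markers. Gene names, positions and sequences came from GENCODE for GRCm38. Some genes of the pathway list are counted but not reported here by name.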

Additional observations from a re-analysis of the deposited data

How the results depend on the processing

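With 3 mice per group, 1 library could decide a call. The share of all genes called under each alternative is not set beside the counts below. Whether a shift is particular to these genes was not tested. In DSS against Con the count of called members stayed within 1.5 times 7 under every alternative. In UA+DSS against DSS (3 called) it was 0 with the Hox position score as covariate and 0 to 3 when 1 library was left out, being 0 without UA+DSS 2 and 1 without DSS 2. Member calls in DSS+UA against DSS, and of Gsdmc4 in any comparison of DSS+UA, are not counted. In UA+DSS against Con (0 called) it was 3 in DESeq2. In DSS+UA against Con (0 called) it was 1 in DESeq2, in the fit of 2 groups and with the Hox score, and 0 to 1 when 1 library was left out. In DSS+UA against UA+DSS (0 called) it was 1 in DESeq2 and in the fit of 2 groups, and 0 to 1 when 1 library was left out. The cause of these shifts was not tested. DESeq2 gave no adjusted p for Nlrp3 in any of the 6 comparisons, and the family sum gives no count of members.

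Of the 47 pathway genes, 10 were called in DSS against Con in the fit of 2 groups in place of 19, and 9 to 21 when 1 library was left out (9 without Con 2). With UA before DSS, against DSS, 0 were called with the Hox score in place of 16, and 1 to 18 when 1 library was left out (1 without UA+DSS 2, 9 without UA+DSS 3). In DSS+UA against DSS 6 were called in DESeq2, 0 in the fit of 2 groups, 0 with the replicate block, 1 with the Hox score and 0 to 8 when 1 library was left out, in place of 3. For type 2 genes the count was 1 of 4 tested in DSS against Con with at least 10 counts in every library, in place of 3. In UA+DSS against DSS it was 1 with that filter, 1 in the fit of 2 groups, 0 with the Hox score and 0 to 3 when 1 library was left out, in place of 3. In DSS+UA against DSS it was 1 in limma-voom, with no low-count filter and in the fit of 2 groups, 0 with the replicate block, 0 with the Hox score and 0 to 2 when 1 library was left out, in place of 2. For mature colonocyte genes it was, in DSS against Con, 4 in DESeq2, 0 with no low-count filter, 0 in the fit of 2 groups, 0 with the Hox score and 0 to 5 when 1 library was left out, in place of 1. It was 8 in UA+DSS against DSS in DESeq2, 0 with the Hox score and 0 to 8 when 1 library was left out, in place of 4, and in DSS+UA against DSS it was 3 in DESeq2 in place of 0.

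Signs turned for some log2 fold changes that had not passed the test or were given without one. In DSS against Con, Gsdmd was -0.0099 with upper-quartile factors and -0.024 with the Hox score, and -0.11 to 0.19 when 1 library was left out, while Casp4 was 0.015 with library size only, 0.054 with the Hox score and -0.74 to 0.22 when 1 was left out. The Hox score in UA+DSS against DSS gave 0.29 for Gsdmd, -0.30 for Casp4 and 0.92 for Il18, and leaving out 1 library gave -0.15 to 0.057 for Gsdmd, -0.26 to 0.85 for Casp4, -0.53 to 0.026 for Il18 and -0.25 to 0.74 for Gsdmc4. In DSS+UA against DSS, library size only gave -0.038 for Casp4 and -0.0092 for Casp6, and leaving out 1 library gave -0.87 to 0.85 and -0.014 to 0.39. Gsdmc4 in DSS+UA against Con ran from -0.46 to 0.18 when 1 library was left out. No pairing by replicate number was clear, with 5 of 12 libraries most alike to one of their own number. The replicate block was therefore fitted only as a check. Counts of called members with the block were 7 in DSS against Con, 3 in UA+DSS against DSS and 0 in the other 3 comparisons counted.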
